A study of Mus musculus with 9 samples.

Results

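A set of 9 genes, of the 56263 listed in the table, encodes proteins that medicines for chronic obstructive pulmonary disease (COPD) act on, or the close relatives of such proteins. The rule names them as drug targets and uses no measured value, although earlier results of these data were known when they were chosen: Adrb1, Chrm1, Chrm2, Chrm3, Nr3c1, Pde4a, Pde4b, Pde4d and Hdac2. All libraries came from lungs of wild-type male BALB/c mice bought at an age of 6 to 8 weeks, and 3 libraries were made in each of 3 groups of 8 mice. The model group (M1 to M3) was exposed to cigarette smoke in 3 daily sessions of 30 min with 6 cigarettes each, over an experiment of 42 days, and received 20 µg of lipopolysaccharide (LPS), a bacterial endotoxin, on day 1 and day 14. The QJHTD group (Q1 to Q3) had the same exposures plus Qing-Jin-Hua-Tan decoction, a herbal formula, at the highest dose of the study. The control group (C1 to C3) had neither the exposures nor the decoction. Whether each library was 1 mouse is not stated in the labels, so the p values measure the spread between these libraries. The measurement was the level of each gene in TPM (transcript shares of a library, corrected for gene length and scaled to a fixed total).

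In the lung, β-adrenergic receptors raise cyclic AMP through the G protein Gs, which relaxes airway smooth muscle, and bronchodilators of the β-agonist class use this route. Acetylcholine from airway nerves acts on muscarinic receptors, of which M3 contracts smooth muscle and drives mucus secretion, M2 restrains cyclic AMP and acetylcholine release, and M1 sits mainly in nerves and ganglia. Phosphodiesterases of the PDE4 family break cyclic AMP down in immune and airway cells and are the target of roflumilast. Nr3c1 encodes the glucocorticoid receptor, which inhaled corticosteroids bind, and Hdac2 encodes a histone deacetylase that this receptor recruits to switch off inflammatory genes.

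The stretches before the transcription start sites are given for the pair of genes that fell most clearly among the abundant members, Adrb1 and Hdac2, and for Pde4b, which did not. Each shows the 250 bases before the first transcribed base, taken from RefSeq on GRCm38.p6 and written along the strand of the gene. The capitals mark the only searched motifs found there, the cyclic AMP response half-site TGACG and the GC box GGGCGG, or their reverse complements.
Adrb1: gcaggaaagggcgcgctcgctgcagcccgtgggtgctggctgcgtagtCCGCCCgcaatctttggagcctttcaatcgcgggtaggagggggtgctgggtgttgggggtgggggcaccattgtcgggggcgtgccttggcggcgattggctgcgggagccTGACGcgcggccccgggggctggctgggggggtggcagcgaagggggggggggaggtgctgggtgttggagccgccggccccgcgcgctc
Hdac2: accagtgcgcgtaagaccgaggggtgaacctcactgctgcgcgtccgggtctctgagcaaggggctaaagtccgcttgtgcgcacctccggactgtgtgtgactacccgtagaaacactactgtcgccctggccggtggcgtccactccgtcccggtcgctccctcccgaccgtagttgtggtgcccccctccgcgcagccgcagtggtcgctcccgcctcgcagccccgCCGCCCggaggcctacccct
Pde4b: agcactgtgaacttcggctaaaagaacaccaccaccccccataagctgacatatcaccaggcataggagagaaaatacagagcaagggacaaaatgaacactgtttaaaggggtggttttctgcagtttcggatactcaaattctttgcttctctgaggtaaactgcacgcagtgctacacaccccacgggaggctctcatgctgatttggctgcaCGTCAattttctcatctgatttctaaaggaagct
They lie at chr19:56721867-56722116 (Adrb1), chr10:36974294-36974543 (Hdac2) and chr4:102421305-102421554 (the first of 4 start sites of Pde4b), all on the plus strand. The GC content was 74.0% for Adrb1, 68.8% for Hdac2 and 46.0% for Pde4b, against a median of 52.4% over the 32851 promoters of the table. Adrb1 had 1 half-site and 1 GC box, Hdac2 1 GC box and no half-site, and Pde4b 1 half-site and no GC box at the start site shown. That site lies within the span of the Pde4b gene given below, and start sites 2, 3 and 4 of Pde4b had neither motif. On either strand, 17.8% of all promoters held a half-site and 32.7% a GC box. The full response element TGACGTCA, which contains the half-site, was in none of the 12 start sites searched for 7 members and in 1.55% of all promoters. The palindromic glucocorticoid response element was in none of the 12 and in 0.00913% of all promoters. A match or its absence describes these letters and no more.

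The library composition sets how every level below reads. Antibody and T-cell receptor segments took 36.8% to 43.7% of all TPM in the QJHTD group and 36.2% to 42.9% in the model group, against 0.30% to 0.60% in the control group. In the opposite direction, club cell markers took 1.78% to 2.68% in the QJHTD group and 1.58% to 3.91% in the model group, against 23.2% to 26.1% in the control group. The median log2 fold change of the 16080 genes tested was -0.47 in the model group against the control group. A member level with that median therefore fell by 0.47 on the log2 scale, no more than the middle gene of all those tested. The lung label was borne out by the alveolar type 2 markers, whose summed level was 26095 to 28305 TPM in the QJHTD group, 24162 to 27700 TPM in the model group and 28562 to 43263 TPM in the control group. M2 and Q1 were the model and QJHTD libraries lowest in the ciliated cell, smooth muscle and cardiomyocyte lists, and counts are also given without them. In whole lung, fewer cells of a type and less RNA per cell cannot be told apart.

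A majority of the members, 6, fell in the model group against the control group and none rose. The test was limma on log2(TPM + 1), with an adjusted p under 0.05 over all 16080 genes counted as changed. It could be run for 8 of the 9 members, and 6 of the 8 were lower and 0 higher, where 56.5% of all genes tested were lower and 16.6% higher. Their median log2 fold change was -0.96, against -0.47 for all genes tested. Of the members, 6 reached 1 TPM in every library. Chrm2 passed the filter only through the control group and Chrm3 only through the model group, so these counts describe the members and support nothing further. The libraries of the model and control groups did not overlap for the same 6 genes, with the model group lower, and for Chrm3 with it higher, as was so for 58.5% and 17.3% of all genes tested. Without M2 and Q1 the counts were again 6 and 0. The counts depended on scaling, and so did the shares of all genes. After median-ratio rescaling 5 members were lower and 2 higher, where 29.6% of all genes were lower and 30.9% higher. Quantile normalization gave 6 lower and 1 higher, where the shares were 38.6% and 24.9%. Once segments, hemoglobin genes and mitochondrial genes were removed and TPM rescaled, 5 were lower and 2 higher, where the shares were 23.9% and 33.6%.

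**Figure D1:**
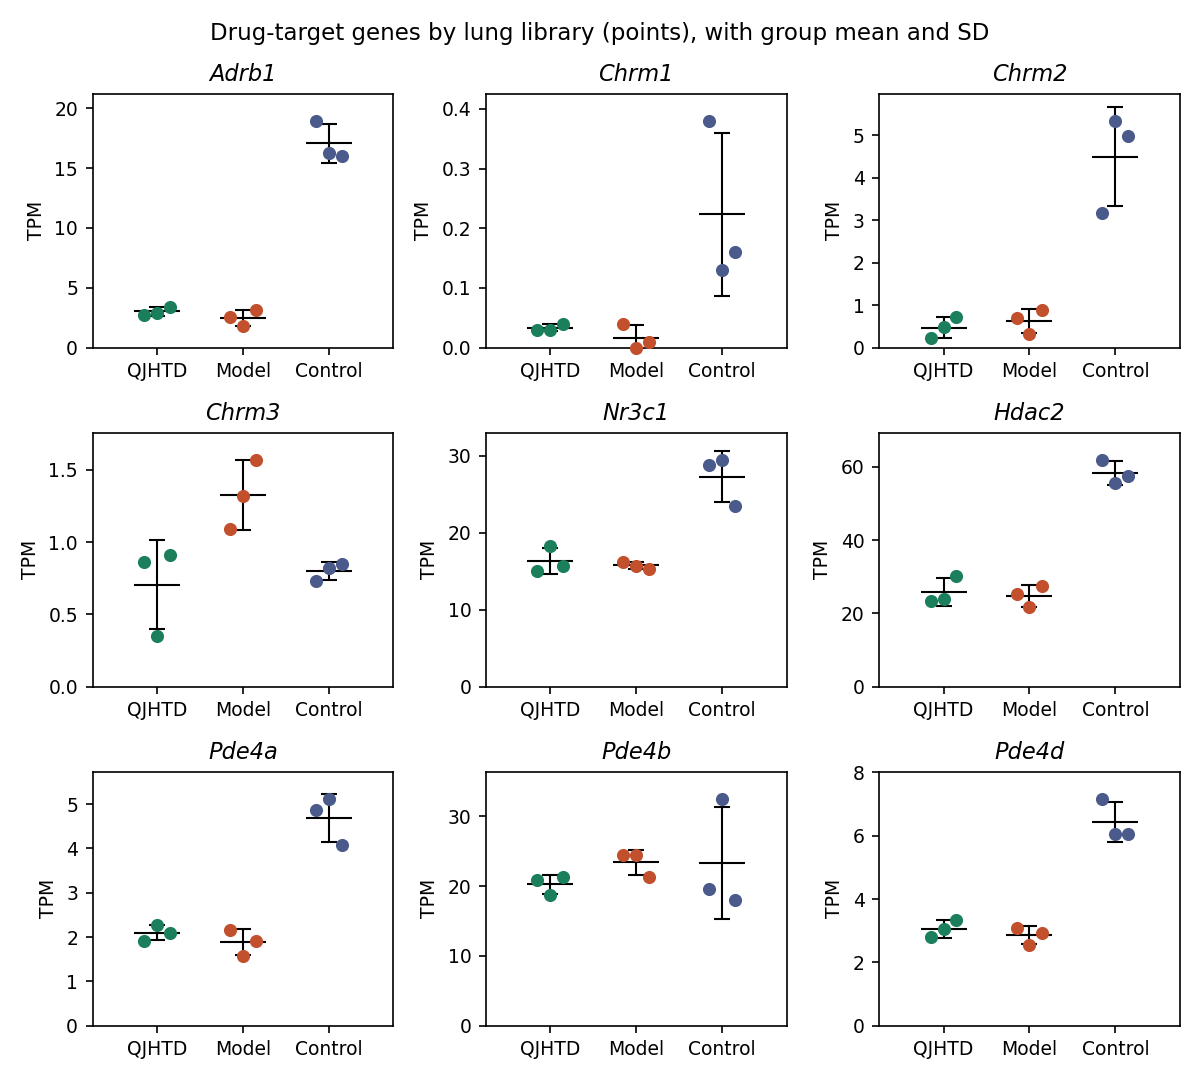
TPM (y axis, linear from 0, own scale per gene) of the 9 genes in each library (points) by group, with the group mean (long bar) and SD (error bar), n = 3. In Adrb1, Chrm2, Nr3c1, Hdac2, Pde4a and Pde4d, and in the untested Chrm1, the 3 control libraries sit above all QJHTD and model libraries. Pde4b overlaps between the model and control groups.

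When set against the model group, the QJHTD group showed no changed member. By limma 0 of the 8 tested passed, where 0.0124% of all genes tested did. At an unadjusted p under 0.05 it was 1 member, Chrm3, where 6.84% of all genes passed. Libraries of the QJHTD and model groups did not overlap for Chrm3 and Pde4b, both lower in the QJHTD group, as were 3.81% of all genes tested, and overlapped for the other members. Against the control group, the QJHTD group had 6 of 8 tested members lower and 0 higher, where 53.7% of all genes were lower and 17.0% higher, and the libraries did not overlap for these 6, as for 56.8% of all genes with the QJHTD group lower. Both comparisons with the control group share its 3 libraries. No member passed in the QJHTD group against the model group under any of 19 alternatives, the fit without M2 and Q1 among them.

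**Figure D2:**
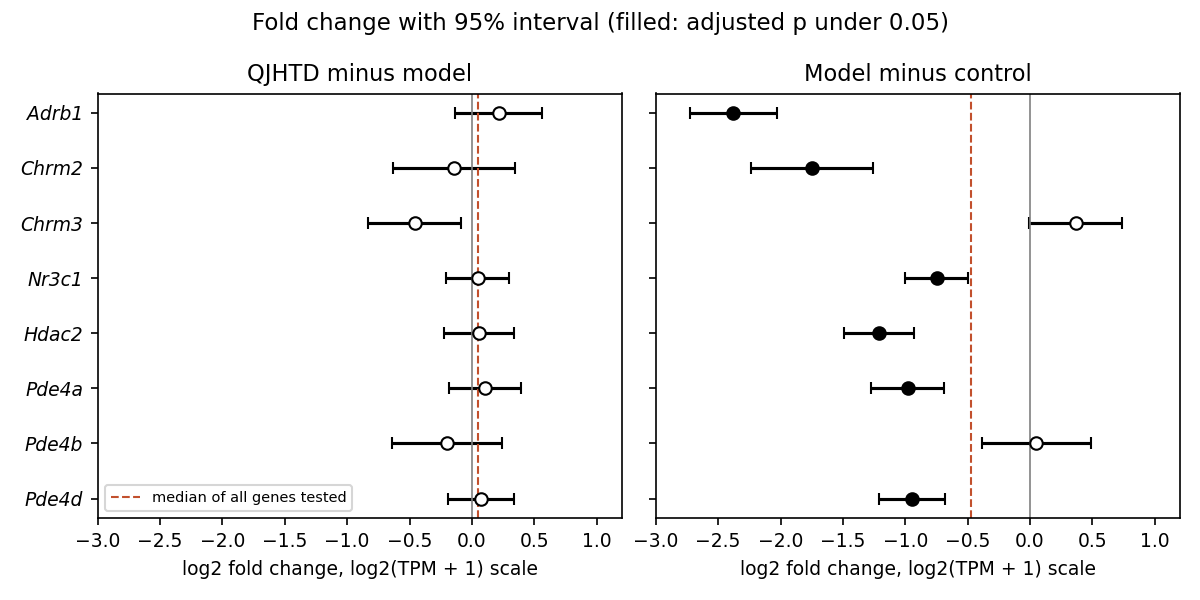
Log2 fold change on the log2(TPM + 1) scale (x axis) with its 95% interval for the 8 tested genes, QJHTD minus model on the left and model minus control on the right. Filled points have an adjusted p under 0.05, and the dashed line is the median of all 16080 genes, at 0.05 on the left and -0.47 on the right.

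Adrb1 encodes the β1-adrenergic receptor, the main β receptor of the heart, which is also present in alveolar tissue, and it is the receptor that β-agonists for the airway are built to spare. The gene lies at chr19:56722199-56733113 (GRCm38, plus strand). Its level was 2.74, 2.93 and 3.43 TPM in the QJHTD group and 2.6, 1.81 and 3.12 TPM in the model group, against 18.95, 16.29 and 15.97 TPM in the control group. The lowest control library was thus far above the highest exposed one, and the QJHTD and model libraries were interleaved. By the ratio of means Adrb1 was 6.80-fold lower in the model group. Its log2 fold change came to -2.38 (SE 0.15, adjusted p = 2.6e-06, limma). Only 1.90% of the genes tested fell further, and the fold change lay -1.91 from the median of all genes. In the QJHTD group the log2 fold change was 0.21 against the model group (95% interval -0.14 to 0.56, adjusted p = 0.84) and -2.16 against the control group (adjusted p = 5.2e-06).

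Beside Adrb1, the cardiomyocyte markers fell in 10 of 11 tested genes, with none of the 12 listed at 0. Their summed level was 38.3 to 439 TPM in the QJHTD group and 38.1 to 199 TPM in the model group, against 716 to 2293 TPM in the control group. All 10 alveolar type 1 markers were tested and 9 fell, with sums of 1084 to 1349 TPM in the QJHTD group, 1014 to 1182 TPM in the model group and 3372 to 4384 TPM in the control group. In both exposed groups the order of the libraries in Adrb1 was that in the cardiomyocyte sum, but also that in the smooth muscle sum and in Hdac2. In the control group C1 was highest in Adrb1 and lowest in the cardiomyocyte sum. Endothelial markers fell in 11 of 11 genes, with sums of 402 to 536 TPM in the QJHTD group, 369 to 404 TPM in the model group and 2772 to 3037 TPM in the control group, and none was listed at 0. The part of these cells in the level of Adrb1 was not tested.

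The remaining genes from the β receptor to protein kinase A fell in 19 and rose in 3 of 25 tested in the model group. Of all genes tested 56.5% fell and 16.6% rose. Adcy4, an adenylyl cyclase that makes cyclic AMP, averaged 5.0 ± 0.89 TPM in the QJHTD group, 3.97 ± 0.25 TPM in the model group and 27.1 ± 0.67 TPM in the control group (SD, n = 3 each). Its log2 fold change came to -2.50 (adjusted p = 4.6e-07, limma) between the model and control groups. Adrb3, the β3 receptor best known from fat cells, fell by 2.70 and Rapgef3, which encodes the cyclic AMP sensor Epac1, by 1.61 on the log2 scale. The 3 that rose were chosen for naming after their values were seen. They were Arrb2, which encodes β-arrestin 2 (log2 fold change 1.07), and Grk2 and Grk6 (0.77 and 0.47), kinases that mark active receptors for arrestin binding. These 3 were also higher after each of the 3 rescalings. After them the list had 11 to 15 genes lower and 4 or 5 higher. None of the 25 passed in the QJHTD group against the model group.

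Of the muscarinic receptor genes, Chrm2 fell and Chrm3 did not pass the test. Chrm2 encodes the M2 receptor, which couples to Gi and is abundant in heart, smooth muscle and nerve endings, and lies at chr6:36388084-36528414 (plus strand). It had 0.22, 0.48 and 0.71 TPM in the QJHTD group and 0.69, 0.31 and 0.88 TPM in the model group, against 3.17, 5.34 and 4.98 TPM in the control group. Every exposed library was below 1 TPM and every control library above 3 TPM. The ratio of means was 7.18-fold lower in the model group, and the log2 fold change, which understates the change of such low genes, was -1.75 (SE 0.22, adjusted p = 1.1e-04, limma). Because Chrm2 passed the filter only through the control group, where it was high, this p is no independent support for its direction, and with no filter on low values the adjusted p was 5.0e-04. Between the QJHTD and model groups it was -0.14 (95% interval -0.63 to 0.35, adjusted p = 0.92). A long noncoding RNA gene, 9330158H04Rik, overlaps Chrm2 on the opposite strand and reached at most 7.75 TPM in a library. The sources do not state whether the counting used strand, so reads of the pair may be shared.

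Chrm2 had its lowest control library in C1, its lowest model library in M2 and its lowest QJHTD library in Q1, which were also the lowest of their groups in the cardiomyocyte sum. Within the QJHTD and model groups the full order of the libraries was the same in both, but also in the smooth muscle sum, Adrb1 and Hdac2. In the control group C2 was highest in Chrm2 and C3 in the cardiomyocyte sum. Smooth muscle markers, another site of the M2 receptor, fell in 10 of 10 genes, with sums of 108 to 211 TPM in the QJHTD group, 121 to 177 TPM in the model group and 539 to 702 TPM in the control group, and none listed at 0. Nerve and Schwann cell markers fell in 4 of 7 tested, where 56.5% of all genes tested fell. Their sums were 14.2 to 26.2 TPM in the QJHTD group, 11.2 to 19.5 TPM in the model group and 93.4 to 119 TPM in the control group. Nerve markers such as Snap25, Elavl4 and Sox10 were listed at 0 in at least 1 library. Their part in the level of Chrm2 was not tested.

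Chrm3 encodes the M3 receptor, which couples to Gq and is the one that tiotropium and related bronchodilators are meant to block. It lies at chr13:9875486-10360847 (minus strand). It had 0.86, 0.35 and 0.91 TPM in the QJHTD group and 1.09, 1.32 and 1.57 TPM in the model group, against 0.73, 0.82 and 0.85 TPM in the control group. The 3 model libraries were the highest of the 9, while the QJHTD and control libraries overlapped. The log2 fold change in the model group was 0.37 against the control group (95% interval -0.01 to 0.74, adjusted p = 0.071, limma), short of the threshold. It passed after median-ratio rescaling (0.63, adjusted p = 0.013), quantile normalization (0.56, adjusted p = 0.037) and the removal of segments, hemoglobin and mitochondrial genes (0.80, adjusted p = 0.011). It also passed without an intensity trend (adjusted p = 0.049) and without Q2 (adjusted p = 0.039), and over all 18 alternatives the adjusted p was 0.011 to 0.19. In the QJHTD group Chrm3 differed by -0.46 on the log2 scale from the model group (95% interval -0.83 to -0.09), with an unadjusted p of 0.021 and an adjusted p of 0.69 by limma. Because Chrm3 passed the filter only through the model group, where it was high, these p values are no independent support for its direction in either comparison. With no filter on low values the adjusted p of the model against the control group was 0.099 (limma). Noncoding genes of up to 1.51 TPM overlap Chrm3 on either strand. At about 1 TPM and with unknown depth, the counting error behind these values is unknown.

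Chrm1, the gene of the M1 receptor at chr19:8663789-8683587 (plus strand), stayed below the filter. It had 0.03, 0.03 and 0.04 TPM in the QJHTD group and 0.04, 0 and 0.01 TPM in the model group, against 0.38, 0.13 and 0.16 TPM in the control group. The control libraries were the 3 highest, but such levels are too low to read a fold change from. With no filter on low values Chrm1 was called lower in the model group (-0.26 on the log2 scale, adjusted p = 0.016, limma). Chrm3 made up 77.5%, 40.7% and 54.8% of the summed TPM of Chrm1 to Chrm3 in the QJHTD group and 59.9%, 81.0% and 63.8% in the model group, against 17.1%, 13.0% and 14.2% in the control group. The mean share was 53.5 percentage points higher in the model group than in the control group, and the difference of the QJHTD group was -10.6 points from the model group and 42.9 points from the control group, where Chrm3 averaged 0.71 TPM in the QJHTD group and 0.80 TPM in the control group. This comparison was added after the data were seen. A two-sided exact permutation test of 3 against 3 gave p = 0.1 for the model and for the QJHTD group against the control group (adjusted p = 0.15 each over 3 comparisons), the smallest it can give, and p = 0.4 for the QJHTD group against the model group.

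**Figure D3:**
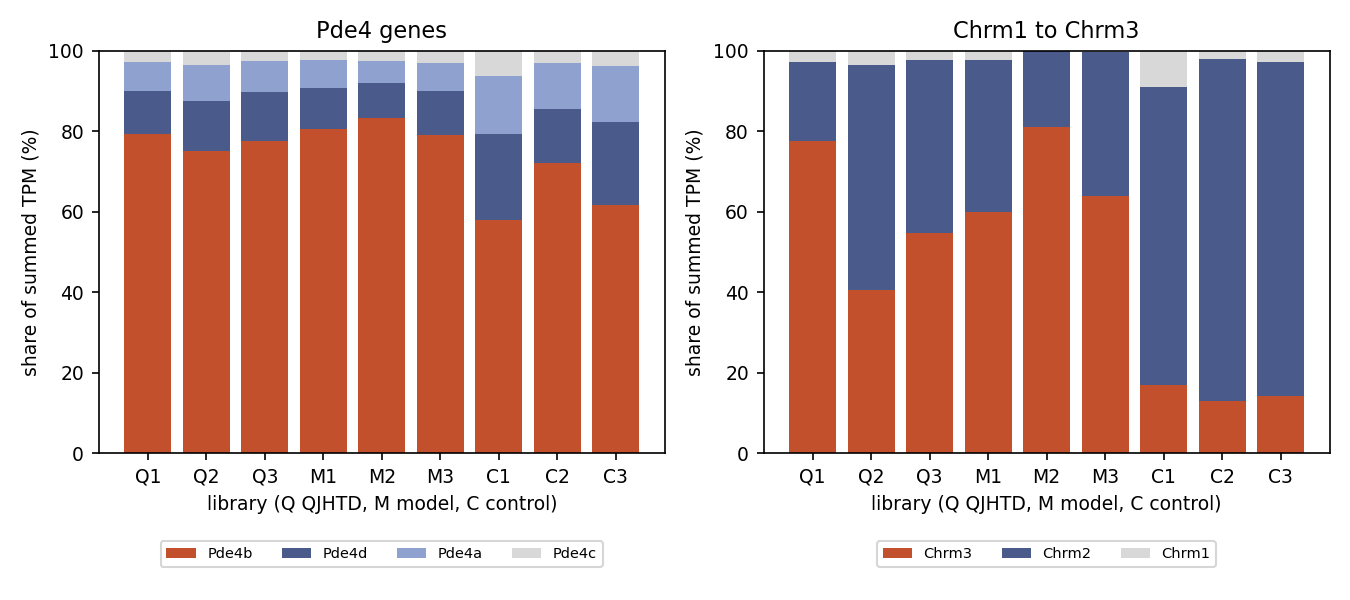
Share of the summed TPM (y axis, percent) of the 4 Pde4 genes (left) and of Chrm1 to Chrm3 (right) in each library, QJHTD, then model, then control. Pde4b takes 75.1% to 83.3% in the QJHTD and model libraries and 58.0% to 72.1% in the control libraries, and Chrm3 takes 40.7% to 81.0% in the QJHTD and model libraries and 13.0% to 17.1% in the control libraries.

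Of 27 genes listed for acetylcholine supply and muscarinic coupling, 7 did not pass the filter, among them Chat, Slc5a7, Slc18a3 and Ache. The counts therefore describe coupling genes and Bche, and say nothing of acetylcholine supply. In the model group 13 of the 20 tested fell and 3 rose, where 56.5% of all genes tested fell and 16.6% rose. Gnai1, which encodes an inhibitory G protein subunit, fell by 1.51 and Gna11, which encodes a Gq-class subunit, by 1.13 on the log2 scale. Rock2, a kinase that keeps smooth muscle contracted, fell by 1.42. The 3 that rose were Itpr3 (0.42), Plcb2 (0.37) and Gnai3 (0.25), an inositol trisphosphate receptor, a phospholipase C and another inhibitory subunit, named after their values were seen, and without M2 and Q1 the last no longer passed (adjusted p = 0.063). The list had 9 lower and 6 higher after median-ratio rescaling, 12 lower and 4 higher after quantile normalization, and 9 lower and 7 higher without segments.

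Nr3c1, the glucocorticoid receptor gene on chromosome 18, had 15.06, 18.32 and 15.70 TPM in the QJHTD group and 16.26, 15.65 and 15.36 TPM in the model group, against 28.86, 29.50 and 23.53 TPM in the control group. The groups with exposure overlapped each other and lay below all control libraries. Its mean was 1.73-fold lower in the model group, and the log2 fold change was -0.75 (SE 0.11, adjusted p = 3.1e-04, limma), only -0.28 from the median of all genes. This call was lost after median-ratio rescaling (log2 fold change -0.23, adjusted p = 0.077) and without segments (-0.13, adjusted p = 0.30). Between the QJHTD and control groups it was -0.70 (adjusted p = 4.8e-04), and the same settings ended that call too. The QJHTD group differed from the model group by 0.05 (95% interval -0.20 to 0.30, adjusted p = 0.96).

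**Figure D4:**
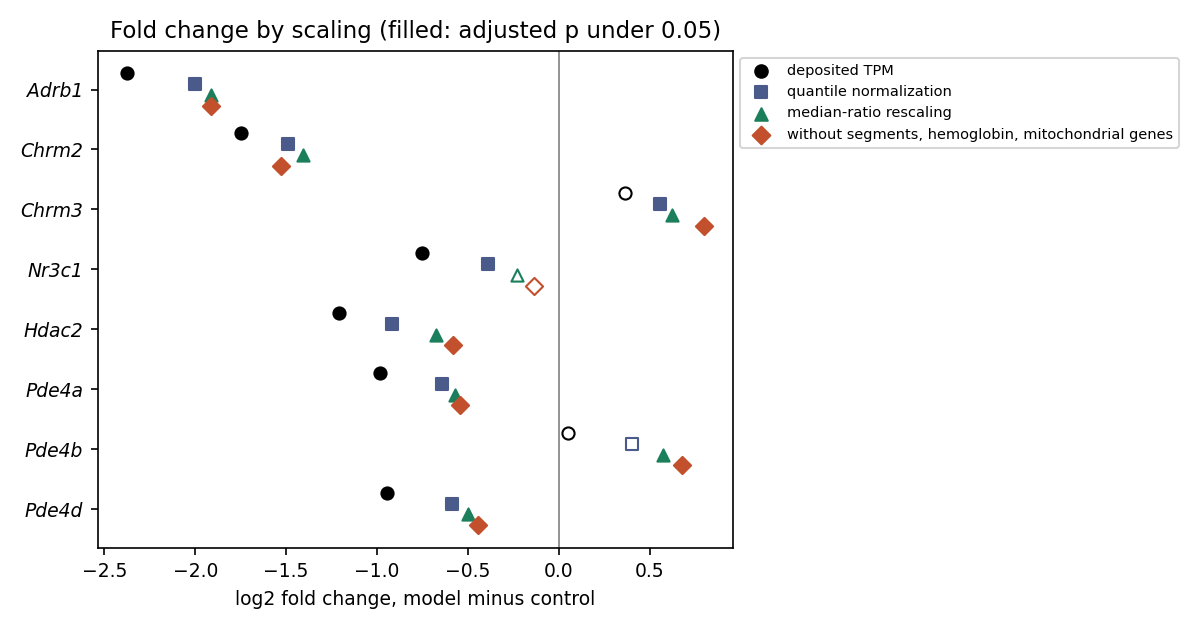
Log2 fold change, model minus control (x axis), of the 8 tested genes with the deposited TPM and after 3 rescalings, filled where the adjusted p is under 0.05. All 8 genes shift to the right in each rescaling. Adrb1, Chrm2, Hdac2, Pde4a and Pde4d stay lower and filled, and Nr3c1 loses its call in 2 rescalings.

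Most partners of the receptor were lower too, as were most genes. Of 18 tested genes 11 were lower and 2 higher than in the control group, where 56.5% of all genes tested were lower and 16.6% higher. The list's median was -1.01 on the log2 scale. Ipo13, an importin that carries the receptor into the nucleus, fell by 1.62, Nr3c2, the related mineralocorticoid receptor, by 1.37 and Fkbp4, a cochaperone of the receptor complex, by 1.89 on the log2 scale. Fkbp4 averaged 53.6 ± 8.95 TPM in the QJHTD group, 52.4 ± 4.55 TPM in the model group and 203 ± 66.2 TPM in the control group (SD, n = 3 each). The pair that rose, named after their values were seen, was Hsd11b2, which inactivates glucocorticoid (log2 fold change 1.16), and Fkbp5, a cochaperone that restrains the receptor (0.89). Without M2 and Q1 Fkbp5 did not pass (adjusted p = 0.057). After the 3 rescalings the list had 8 to 11 genes lower and 5 to 7 higher.

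Genes that glucocorticoids induce split evenly, with 6 higher, 6 lower and 1 short of the test among 13 in the model group, and a median of -0.02. Of all genes tested 16.6% were higher and 56.5% lower. Against the same controls the QJHTD group had 4 higher and 6 lower of the list, with a median of -0.47. The shares of all genes were 17.0% and 53.7%. After the 3 rescalings the model group had 6 or 7 higher and 5 or 6 lower, with medians of 0.31 to 0.61. The QJHTD group then had 5 or 6 higher and 6 lower against the control group, with medians of -0.16 to 0.16. The list genes with the smallest p were all lower. Klf9, a transcription factor, had 8.44, 8.79 and 8.96 TPM in the QJHTD group and 9.0, 6.84 and 9.79 TPM in the model group, against 38.54, 48.73 and 37.54 TPM in the control group. Its log2 fold change was -2.16 (adjusted p = 2.7e-06, limma), and those of Per1, a clock gene, and Zbtb16, a zinc finger factor, were -1.50 and -2.72. Among those that rose were Fkbp5 again and Nfkbia (1.02), the inhibitor of NF-κB, which inflammatory signals induce as well. No gene of either list passed in the QJHTD group against the model group.

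Hdac2 was the most abundant member. Its gene lies at chr10:36974544-37001889 (plus strand). It had 23.28, 24.05 and 30.27 TPM in the QJHTD group and 25.21, 21.63 and 27.45 TPM in the model group, against 61.94, 55.57 and 57.59 TPM in the control group. The lowest control library was above the highest exposed library by a wide margin. By the ratio of means it was 2.36-fold lower in the model group. Its log2 fold change came to -1.21 (SE 0.12, adjusted p = 3.5e-05, limma), and the difference from the median of all genes was -0.74. It was lower under all 19 alternatives, with fold changes of -1.28 to -0.58. The QJHTD group differed from the model group by 0.06 (95% interval -0.22 to 0.34, adjusted p = 0.95).

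The other 10 histone deacetylases fell in 8 cases and rose in 1, where 56.5% of all genes tested fell and 16.6% rose. Hdac7, a class IIa enzyme of endothelium and thymus, fell by 1.42, Hdac11 by 1.19 and Hdac10 by 1.26 on the log2 scale. After the 3 rescalings 3 or 4 of the list were lower and 2 or 3 higher. The 1 that rose was Hdac9, another class IIa enzyme (0.45), named after its value was seen. Hdac1, the twin of Hdac2 in the same complexes and also named afterwards, stood at -0.47 on the log2 scale (adjusted p = 0.0057, limma), level with the median of all genes, and one of 0.06 after median-ratio rescaling (adjusted p = 0.55). The difference between Hdac1 and Hdac2 was not tested. Subunits of the NuRD, Sin3 and CoREST complexes that hold Hdac2 had 9 lower and 2 higher of 17, beside 56.5% and 16.6% of all genes tested. Chd3, a remodelling ATPase, fell by 0.81, Mbd2, a reader of methylated DNA, by 0.87 and the NuRD subunit Mta1 by 0.49. Sap30 (0.53) and Mta3 (0.29) rose, named after their values were seen, although Mta3 had an adjusted p of 0.059 without M2 and Q1. This balance turned round with scaling, since 2 subunits were lower and 8 higher after median-ratio rescaling, 4 lower and 6 higher after quantile normalization, and 0 lower and 11 higher without segments. Hdac2 fell under each of them.

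**Figure D5:**
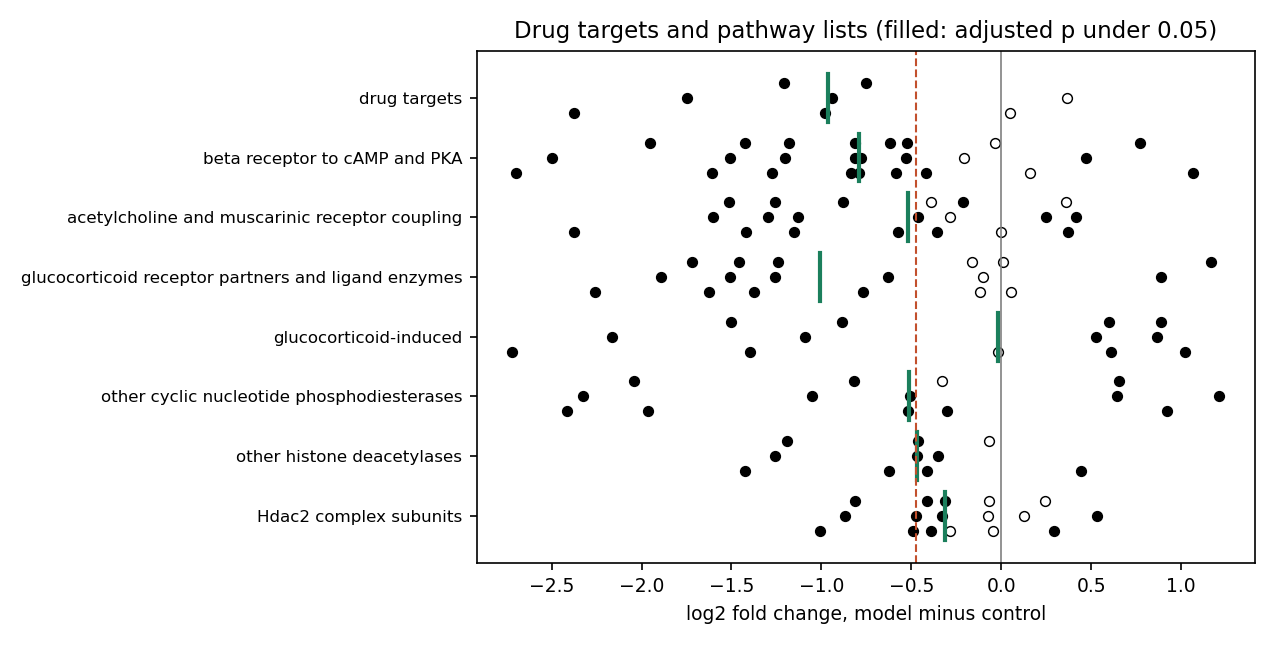
Log2 fold change, model minus control (x axis), of each tested gene in the drug-target set and 7 related lists, filled where the adjusted p is under 0.05. The green bar is the median of each list, from -1.01 for glucocorticoid receptor partners to -0.02 for glucocorticoid-induced genes, and the dashed line is the median of all genes tested at -0.47.

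The PDE4 genes did not move together. Pde4a, at chr9:21165714-21213248 (plus strand), had 1.92, 2.26 and 2.10 TPM in the QJHTD group and 2.16, 1.58 and 1.90 TPM in the model group, against 4.87, 5.12 and 4.07 TPM in the control group. Pde4d, at chr13:108449948-109953461 (plus strand) and known from the heart and airway smooth muscle, had 2.79, 3.05 and 3.35 TPM in the QJHTD group and 3.10, 2.55 and 2.94 TPM in the model group, against 7.17, 6.07 and 6.06 TPM in the control group. For both, all control libraries lay above all others. The log2 fold changes in the model group were -0.98 for Pde4a (SE 0.13, adjusted p = 1.5e-04, limma) and -0.94 for Pde4d (SE 0.12, adjusted p = 1.1e-04). Between the QJHTD and model groups they were 0.11 (95% interval -0.18 to 0.40) and 0.07 (-0.19 to 0.34), with adjusted p of 0.91 and 0.93.

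Pde4b, at chr4:102087543-102607259 (plus strand), is the PDE4 gene of neutrophils and macrophages that LPS is known to induce. It had 20.86, 18.66 and 21.27 TPM in the QJHTD group and 24.50, 24.43 and 21.36 TPM in the model group, against 19.52, 32.53 and 17.97 TPM in the control group. C2 held the highest value of all and the other control libraries were among the lowest, so the control and model groups overlapped. The log2 fold change in the model group was 0.05 (95% interval -0.39 to 0.49, adjusted p = 0.82, limma), which is 0.52 above the median of all genes. Pde4b passed as higher without C2 (0.31, adjusted p = 0.033), after median-ratio rescaling (0.57, adjusted p = 0.046) and without segments (0.68, adjusted p = 0.020). It was -0.05 without C1 and -0.11 without C3, and the adjusted p over 19 alternatives was 0.020 to 0.95. In the QJHTD group Pde4b differed by -0.20 on the log2 scale from the model group (95% interval -0.64 to 0.24, adjusted p = 0.88), though its 3 libraries lay below the 3 model libraries, the nearest pair being 21.27 and 21.36 TPM.

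Neutrophil markers rose in 11 of 11 genes in the model group. Their summed level was 4480 to 8156 TPM in the QJHTD group and 6591 to 13746 TPM in the model group. In the control group it was 161 to 364 TPM. C2 was the highest control library in this sum as in Pde4b. It was also highest in the sums of monocyte and macrophage, alveolar type 1 and alveolar type 2 markers. Monocyte and macrophage markers rose in 8 of 10, with 1382 to 1887 TPM in the QJHTD group, 1281 to 1514 TPM in the model group and 575 to 841 TPM in the control group. Ly6g was listed at 0 in at least 1 library. The part of these cells in the level of Pde4b was not tested.

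Of the summed TPM of Pde4a, Pde4b, Pde4c and Pde4d, Pde4b made up 77.4% ± 2.12 in the QJHTD group, 80.9% ± 2.16 in the model group, and it averaged 63.9% ± 7.33 in the control group (SD, n = 3 each). Pde4d had 11.7% in the QJHTD group and 9.92% in the model group, and its control mean was 18.5%. Pde4a had 8.02% in the QJHTD group and 6.50% in the model group, and its control mean was 13.3%. The Pde4b share was 17.1 percentage points higher in the model group than in the control group, with no overlap of libraries. A two-sided exact permutation test gave p = 0.1 (adjusted p = 0.15 over 3 comparisons), the smallest that 3 against 3 libraries allow. For the QJHTD group the difference was -3.59 points from the model group (exact p = 0.2) and 13.5 points from the control group (exact p = 0.1). A share does not depend on the segments, and without C2 the first difference was 21.2 points.

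Other cyclic nucleotide phosphodiesterases divided in the model group, with 9 lower and 4 higher of 14 tested, where 56.5% of all genes tested were lower and 16.6% higher. Pde3a, which breaks down cyclic AMP in heart, platelets and smooth muscle, had 0.70, 0.89 and 0.97 TPM in the QJHTD group and 0.76, 0.72 and 0.79 TPM in the model group, against 8.99, 7.59 and 6.91 TPM in the control group, which gave -2.32 on the log2 scale (adjusted p = 1.0e-06, limma). Like Chrm2, Pde3a passed the filter only through the control group, where it was high, so this p is no independent support for its direction. Pde8b, a cyclic AMP enzyme, fell by 2.04 and Pde5a, the cyclic GMP enzyme that sildenafil blocks, by 1.97. The 4 that rose were Pde3b (0.65), Pde1c (0.92), Pde2a (1.21) and Pde1b (0.65), named after their values were seen, and each also passed after the 3 rescalings. The falls were fewer then, at 4 to 6 of the list. In the QJHTD group none of the 14 passed against the model group.

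Across genes, which TPM allows because it is corrected for length, Hdac2 was highest in each group and Chrm1 lowest. In the QJHTD group the order by mean level was Hdac2, Pde4b, Nr3c1, Pde4d, Adrb1, Pde4a, Chrm3, Chrm2 and Chrm1, with overlapping libraries for the neighbours Pde4d and Adrb1 and for Chrm3 and Chrm2. The model group had the same order, with overlaps of Hdac2 and Pde4b, Pde4d and Adrb1, and Adrb1 and Pde4a. In the control group Nr3c1 stood above Pde4b and Adrb1 above Pde4d, and Chrm2 was above Chrm3. Nr3c1 and Pde4b, Pde4b and Adrb1, and Pde4a and Chrm2 had overlapping libraries there.

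By Pearson's correlation of log2(TPM + 1) over the 9 libraries, the genes most like Adrb1 were Sptbn1, Tpt1 and Selenof (0.998 to 0.999), and the nearest to Hdac2 were S100a16, Mrpl53 and Ndn. For Chrm2 they were Pdlim5, Cidec and Nudt11, for Nr3c1 Zfp768, Tcte2 and Btbd7, for Pde4a Mex3c, Smad5 and Wnk1, and for Pde4d Stk11, Prcc and Slc7a10, all at 0.99 or above. These values mostly restate the gap between the control libraries and the rest, which very many genes share. Pde4b and Chrm3 had looser neighbours, Kdm6b, Cry1 and Ak4 at 0.88 to 0.89 for the first and Taldo1, Tmem202 and Pgm2 at 0.82 to 0.86 for the second.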

How the data were processed

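Lung RNA of 9 libraries was sequenced, 3 per group. The authors trimmed reads with fastp, quantified genes with RSEM and deposited TPM per gene and library. Tool versions were not given in the sources used here. Per the submitters' notes the build was GRCh38.p6, a human assembly, whereas the identifiers are of mouse genes. Of 55486 identifiers 55226 matched GENCODE M21 (GRCm38), from which coordinates were taken. The deposited group means were not used. Depth is unknown, since TPM keep no counts. A gene entered the test where 3 or more libraries reached 1 TPM (16080 genes). The test was limma (version 3.58.1, R 4.3.3) with an intensity trend on log2(TPM + 1), in 1 fit of all groups, adjusted by Benjamini-Hochberg over those genes, and an adjusted p under 0.05 was a call. The study names no test for its RNA-seq. Shares were compared by exact permutation. The members and gene lists were chosen with earlier results of these data known. All 9 members were named, with the 3 genes of smallest p per list, model against control, any passing between the QJHTD and model groups, and the 3 genes most correlated with each tested member. The alternatives changed the pseudocount (to 0.1), the filter (none, or a mean TPM of 5 or more), the scaling (median-ratio, quantile, or TPM after removal of 665 segments, 14 hemoglobin and 37 mitochondrial genes), the fit (2 groups alone, no trend, a replicate block), the libraries (each left out) and the share (Pde4b of Pde4b and Pde4d). A fit without M2 and Q1 and the Chrm3 share were added after seeing the data. The procedure was tested on simulated data. Python 3.11.15 with pandas 2.3.3, matplotlib 3.10.9 and numpy 2.4.6 handled tables and plots.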

Additional observations from a re-analysis of the deposited data

How the results depend on the processing

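Of the members that reached 1 TPM in every library, Adrb1, Hdac2, Pde4a and Pde4d were lower than in the control group under every alternative run on them, in the model and in the QJHTD group, and no member passed between the QJHTD and model groups. The number of members higher in the model group was 0 with the deposited TPM, 2 after median-ratio rescaling, 1 after quantile normalization, 2 without segments, hemoglobin and mitochondrial genes, 1 without an intensity trend, and 0 to 1 with single libraries left out (1 without C2 and 1 without Q2). These were Chrm3 and Pde4b. The share of all genes called higher was 16.6% with the deposited TPM and 30.9%, 24.9% and 33.6% after the 3 rescalings in that order, and the share called lower was 56.5% with the deposited TPM and 29.6%, 38.6% and 23.9%. The number lower was 3 of the 4 members that averaged 5 TPM or more, because that filter leaves fewer genes. This held in the model and in the QJHTD group against the control group. With no filter on low values 7 members were lower in the model group, Chrm1 among them, where 33.5% of all genes were lower. Against the control group, the QJHTD group turned to higher, without passing the test, in Chrm3 after median-ratio rescaling (0.12), quantile normalization (0.011) and without segments (0.22), and in Pde4b under the same settings (0.33, 0.18 and 0.49). With single libraries left out, these log2 fold changes were -0.18 to 0.067 for Chrm3 and -0.31 to 0.11 for Pde4b, that of Pde4b in the model against the control group was -0.11 to 0.31, and those of the QJHTD against the model group were -0.033 to 0.10 for Nr3c1 and -0.057 to 0.13 for Hdac2. The cause of these changes was not tested. The median of all genes, model against control, was -0.47 with the deposited TPM, -0.16 after quantile normalization and 0.08 without segments. The Pde4b share kept its direction in all 7 alternatives, with differences of 11.7 to 21.2 points between the model and control groups. With the replicate number as a block, 6 members were lower and 0 higher in the model group, and no call of a member changed. Same-numbered libraries correlated at -0.10 to 0.09 in their deviations from the group means. Pairs with different numbers were not set beside them, so whether the numbers pair libraries was not settled. TPM with no depth limit what can be said of genes near 1 TPM, such as Chrm3 and Chrm2, and of Chrm1.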
